A study of Homo sapiens with 121 samples.

Results

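The histone genes were followed in 121 single cells of WA26, a human embryonic stem cell (hESC) line, each analysed by scT&R-seq. This method separates the poly(A) mRNA of a cell from its genomic DNA, reads the mRNA by Smart-seq2 and measures telomere length in the DNA of the same cell by PCR as the T/R ratio, the telomere signal over an Alu repeat signal. Members were taken by symbol, as symbols that start with HIST1H, HIST2H, HIST3H, HIST4H, H2AF, H3F3 or H1F and go on with a further character. This family was chosen with earlier results of these data known. The rule found 91 of 25610 genes read: 72 replicative genes (the HIST symbols), 16 variant genes (the H2AF, H3F3 and H1F symbols), 2 pseudogenes by symbol (H3F3AP4 and HIST1H2APS1) and the antisense gene H1FX-AS1. By their titles, 81 cells had long, 25 medium and 15 short telomeres, and all came from WA26 cultures kept undifferentiated in E8 medium on Matrigel, with no genotype or treatment that differs between groups. The labels name no separate culture, clone or batch, so that each telomere group counts as 1 sample, cells are not replicates, and no p-value or standard error is given.

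Replicative histone genes supply the bulk of nucleosomal protein while DNA is copied in S phase. They have no introns, and their mRNA usually ends in a short stem-loop that the protein SLBP binds, in place of a poly(A) tail. Variant genes are spread over the genome, are made throughout the cell cycle as polyadenylated mRNA and replace the canonical histones at particular sites, such as H2A.Z at promoters and H3.3 at active genes and at telomeres. A primer of T bases captures RNA through A bases, so a mRNA that ends in the stem-loop is not its usual target.

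The stem-loop was searched in the 100 genomic bases after the stop codon (hg19, the same assembly as GRCh37, gene positions from GENCODE) as a stem of 6 base pairs that opens GG and closes CC, with G-T pairs allowed, around a loop of 4 bases with T at its positions 1 and 3. It was present in 67 of 67 replicative genes with an annotated stop codon, in 1 of 16 variant genes (H2AFX) and in 0.391% of 19443 protein-coding genes, the histone genes included. The sequences below are those of the 9 replicative genes with the highest mean levels and of H2AFX, 5′ to 3′ on the gene's strand, with the stem and loop of 16 bases in capitals.

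HIST1H4C, chr6:26104540-26104565, plus strand: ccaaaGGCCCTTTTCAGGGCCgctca
HIST1H4J, chr6:27792232-27792257, plus strand: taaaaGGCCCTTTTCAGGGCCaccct
HIST1H4K, chr6:27798951-27798976, minus strand: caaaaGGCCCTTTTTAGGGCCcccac
HIST1H2BK, chr6:27114140-27114165, minus strand: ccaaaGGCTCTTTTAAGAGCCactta
HIST1H2BH, chr6:26252278-26252303, plus strand: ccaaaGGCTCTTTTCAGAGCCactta
HIST1H2BD, chr6:26158810-26158835, plus strand: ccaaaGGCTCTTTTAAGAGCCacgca
HIST1H1C, chr6:26055967-26055992, minus strand: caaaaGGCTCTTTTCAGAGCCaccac
HIST1H2AM, chr6:27860477-27860502, minus strand: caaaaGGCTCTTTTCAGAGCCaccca
HIST3H2A, chr1:228645065-228645090, minus strand: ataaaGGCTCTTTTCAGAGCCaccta
H2AFX, chr11:118965603-118965628, minus strand: acaaaGGCCCTTTTAAGGGCCaccac

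Each lies in the 3′ untranslated part of a transcript with a single exon, 22 to 67 bases past the stop codon among the replicative genes. The form of the stem divided the family: all 14 H4 genes with a stem-loop opened with GGCCC, as H2AFX did, and none of the other 53 replicative genes did. The commonest form, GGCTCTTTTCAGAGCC, stood in 39 genes. The annotated transcript ended within 11 bases of the stem-loop in 65 replicative genes, while that of HIST2H2BE ran 1729 bases past it and that of HIST2H2AA3 285 bases. H2AFX, whose protein is phosphorylated at DNA breaks, was annotated for a further 1024 bases past its stem-loop.

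The 6 hESC markers (among them POU5F1, NANOG and SOX2) were each detected, that is above 1 TPM (a level per length of transcript, scaled to nearly the same sum in every cell), in 93.4% to 100% of cells. Of 10 markers of differentiated cells, FGF5 was the most often detected (43.0% of cells) and 1 was at 0 in every cell. Both marker sums differed between telomere groups in their medians, and only the hESC marker sum followed the order of the groups. The summed hESC markers had a median of 2018 TPM for long (522 to 2597), 1684 TPM for medium (814 to 2435) and 1047 TPM for short telomere cells (521 to 2256). The summed differentiation markers had medians of 4.63 TPM (0 to 58.9), 3.60 TPM (0 to 118) and 11.5 TPM (0 to 110). Their part in the group differences given here was not tested. Between 2030 and 11515 genes were detected per cell. The mean was 8296 ± 2152 (SD, n = 81) for cells with long telomeres, 7980 ± 2070 (n = 25) for medium and 5784 ± 2355 (n = 15) for short, so telomere group and number of detected genes moved together. Each comparison was therefore repeated among 68 gene-rich cells, those with over 8000 detected genes (51 long, 14 medium and 3 short), and the other 53, gene-poor cells (30, 11 and 12). TPM keeps no read number, so the depth behind a value and its counting error are unknown.

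Variant genes made up most of the histone TPM. The 16 variant genes summed to between 1221 and 34679 TPM in a cell (median 5391), and the 72 replicative genes to between 7.77 and 16460 TPM (median 623). The variant share of their joint TPM averaged 85.5% ± 14.4 (SD, n = 121 cells). The variant sum leaves out the pseudogene H3F3AP4, at a mean of 2889 TPM, which shares sequence with H3F3A. Variant genes were also the more evenly detected. Of 16, 11 were detected in at least 10% of cells and 10 in at least 50%, against 31 and 8 of 72 replicative genes. A cell had 8.81 ± 1.62 variant and 12.1 ± 7.07 replicative genes detected (SD, n = 121).

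**Figure D1:**
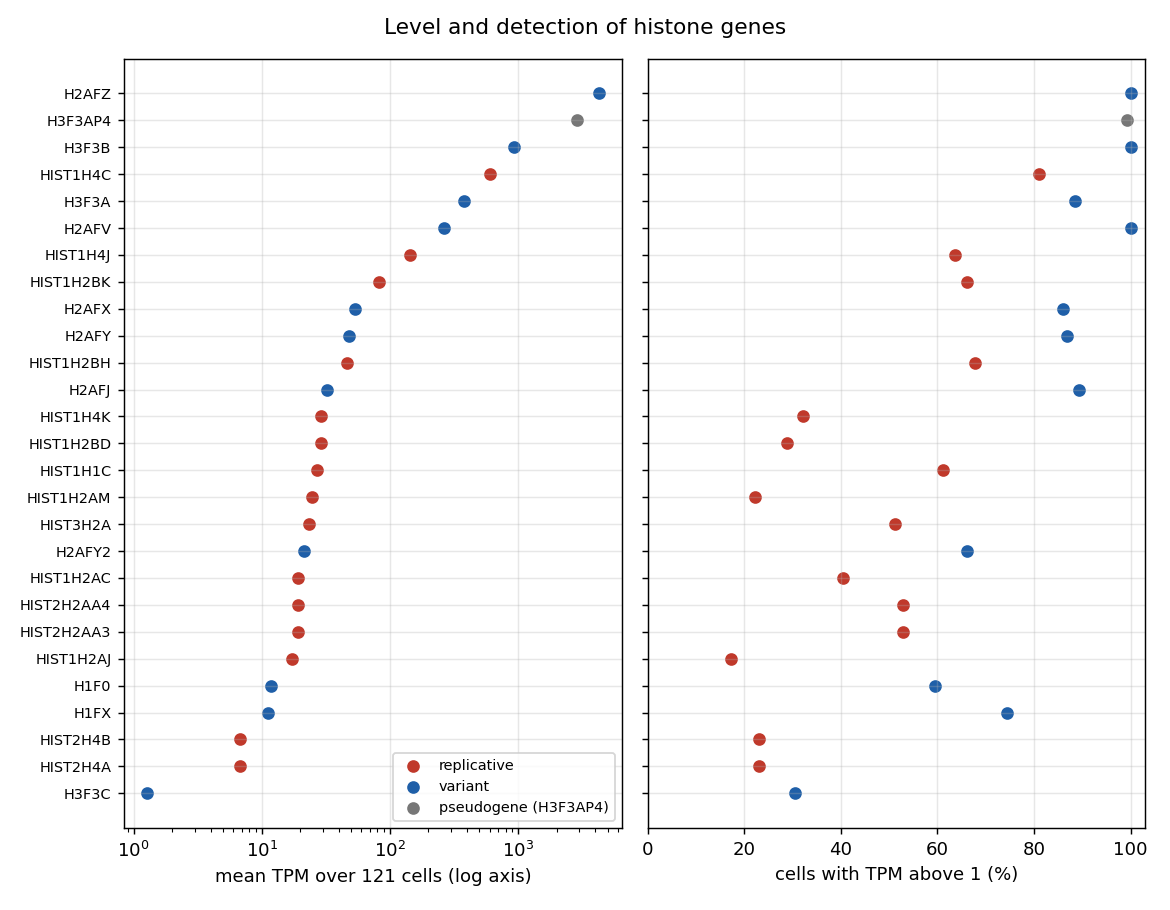
Mean TPM over 121 cells (left, log axis) and percentage of cells above 1 TPM (right) for 26 named histone genes and the pseudogene H3F3AP4, sorted by mean TPM. H2AFZ, at a mean of 4293 TPM, is the highest, and HIST1H4C, at 609 TPM, is the highest replicative gene (red); H2AFZ, H3F3B and H2AFV are detected in 100% of cells.

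H2AFZ, which encodes H2A.Z (chr4:100869243-100871512), led the variant genes and, with H3F3AP4 left out of the sum, gave 70.9% of their summed TPM. Its level was 893 TPM in the lowest, 3814 in the median and 8339 in the highest long telomere cell, 563, 3726 and 7190 TPM in medium and 517, 3482 and 34465 TPM in short telomere cells. The ranges overlapped throughout, and the highest value belonged to short telomere cell 6. H2AFV, which encodes the closely related H2A.Z.2, had a mean of 264 ± 213 TPM (SD) and was detected in every cell. H3F3B and H3F3A, separate genes for the same H3.3 protein, had means of 937 ± 758 and 381 ± 316 TPM. H2AFX averaged 53.7 TPM and H2AFY, which encodes macroH2A1, 48.1 TPM. H2AFJ, a H2A variant of mammals, averaged 32.2 TPM and H2AFY2, the macroH2A2 gene, 21.4 TPM. The linker histone genes H1F0, typical of cells that leave the cell cycle, and H1FX averaged 11.8 and 11.1 TPM. H3F3C, a retrotransposed H3.3-like gene, averaged 1.27 TPM. The other 5 variant genes were at 0 in all 121 cells: H1FNT and H1FOO, the linker histones of sperm and egg precursors, and H2AFB1, H2AFB2 and H2AFB3, known from testis.

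Histone H4 gave most of the replicative TPM summed over all cells, but not among gene-rich cells. The 15 H4 genes gave 65.5% of the replicative TPM summed over all cells, the 20 H2B genes 15.8%, the 17 H2A genes 11.5%, the 6 linker histone H1 genes 4.16% and the 14 H3 genes 3.03%. Among gene-rich cells the means were 220 TPM for H4 and 220 TPM for H2B genes, and among gene-poor cells 1576 and 166 TPM. HIST1H4C alone gave 49.0% of the TPM summed over all cells, and with HIST1H4J, HIST1H4K and HIST1H2BK 69.5%. The share of HIST1H4C within a cell had a median of 10.4%, with 5.03% among gene-rich and 28.2% among gene-poor cells. By position, 55 genes with HIST1 symbols (chromosome 6) gave 92.0%, 13 HIST2 genes (chromosome 1) 5.74%, 3 HIST3 genes (chromosome 1) 2.03% and HIST4H4 (chromosome 12) 0.206%. The leading gene changed from cell to cell. HIST1H4C was the highest replicative gene in 35 cells, HIST1H4J in 32, HIST1H2BK in 19, HIST1H4K in 13 and HIST1H2BH in 11. HIST1H4J and HIST1H4K share most of their sequence, so their places are uncertain singly, and their sum was not ranked.

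HIST1H4C varied widely between cells, with a mean of 609 ± 1956 TPM (SD, n = 121) against a median of 58.1. It exceeded 1000 TPM in 13 cells, all of them gene-poor: 4 long, 3 medium and 6 short telomere cells. HIST1H2BK and HIST1H2BH encode H2B and averaged 82.5 ± 197 and 46.5 ± 67.2 TPM. HIST1H1C, for linker histone H1.2, averaged 27.1 ± 50.3 TPM and was detected in 61.2% of cells. HIST1H2BD averaged 28.8 TPM, with 2543 TPM in its highest cell and a median of 0, and HIST1H2AM 24.8 TPM, with 1674 TPM in its highest cell and a median of 0, so that these means rested on few cells. HIST3H2A averaged 23.2 TPM, HIST1H2AC 19.3 TPM and the pair HIST2H2AA3 and HIST2H2AA4 19.1 TPM each. Of the replicative genes, HIST1H2AA and HIST1H2BA, known from testis, and HIST1H4G were at 0 in every cell. Of the 72 replicative genes, 46 had a mean of at least 1 TPM and 25 of at least 5 TPM. Outside both classes, the pseudogene HIST1H2APS1 was detected in 1 cell and H1FX-AS1 in 20 (mean 1.03 TPM), whose reads cannot be told apart from those of its partner H1FX where they overlap, since no use of strand is stated. The longest run of A bases in the transcript (7 in HIST1H4C and 4 in HIST1H4J) had a Spearman's rho of -0.02 with mean TPM across 69 replicative genes, a description across genes that share libraries.

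Some members cannot be told apart by short reads. Windows of 50 bases, the read length, were taken along each transcript and looked up in the whole genome outside the gene itself, and 19 of 88 members had more than 50% of their windows elsewhere. HIST2H2AA3 with HIST2H2AA4, HIST2H3A with HIST2H3C and HIST2H4A with HIST2H4B had the same TPM in each of the 121 cells, so that they are 3 measurements rather than 6. All of their windows occurred elsewhere in the genome. With its own pair member, HIST2H2AA3, whose transcript is the longer of its pair, shared 57.7% of its windows, HIST2H3C 99.2% and the other 4 members 100%. HIST1H4J and HIST1H4K shared 92.1% and 92.6% of their windows with each other, and behaved in another way: 72 cells had HIST1H4J alone above 1 TPM, 34 had HIST1H4K alone, 5 had both and 10 neither. Their log2(TPM + 1) values had r = -0.68 (Spearman's rho -0.67, n = 121 cells), r = -0.87 among gene-rich and r = -0.51 among gene-poor cells. The sum of both had a median of 103 TPM. HIST1H4C shared 0% of its windows. H3F3AP4, a pseudogene with a single exon of 411 bases on chromosome 2, shared 100% of its windows, 76.0% of them with H3F3A, and stood at a mean of 2889 ± 1073 TPM, above H3F3A, which shared 94.0%. In the 14 cells with H3F3A at 1 TPM or lower, the median of H3F3AP4 was 3277 TPM, against 3055 TPM in the other cells. Levels of these pairs are uncertain singly, and the part of read assignment in them was not tested. Summed, H3F3A and H3F3AP4 had a median of 3555 TPM. H2AFZ and H3F3B shared 13.3% and 12.7% of their windows.

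**Figure D2:**
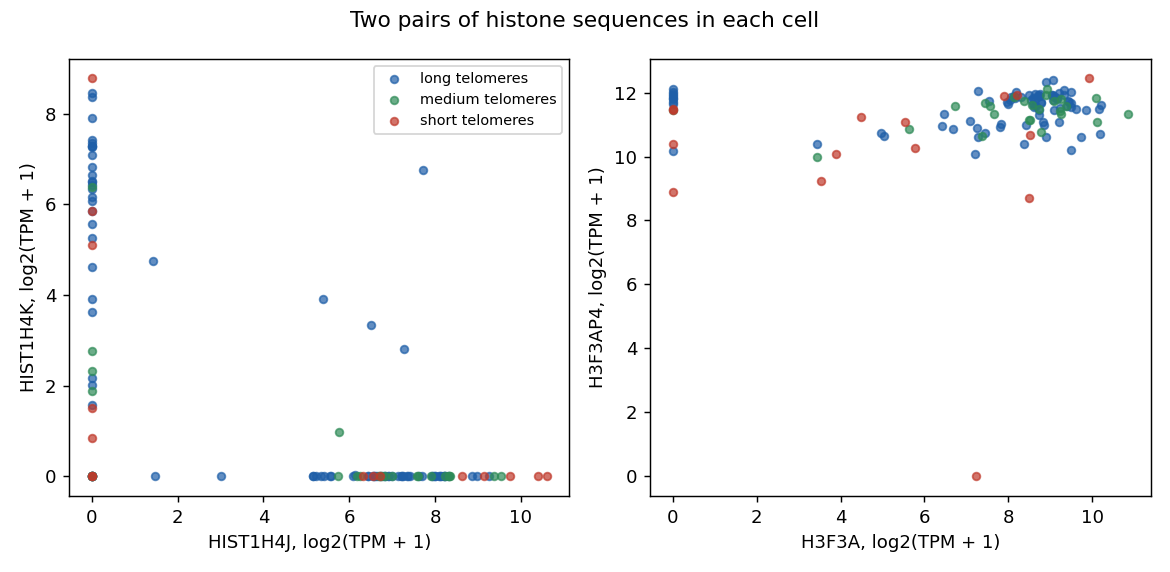
log2(TPM + 1) of HIST1H4J against HIST1H4K (left) and of H3F3A against H3F3AP4 (right), each point a cell coloured by telomere group. In the left panel nearly all points lie on the axes (5 of 121 cells have both above 1 TPM), and in the right panel H3F3AP4 stays high where H3F3A is at 0.

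The summed replicative TPM was higher in short than in long telomere cells, and the variant sum differed less. Replicative TPM was 7.77 in the lowest, 537 in the median and 9134 in the highest long telomere cell, 240, 809 and 5239 in medium and 234, 1602 and 16460 in short telomere cells. Most short telomere cells lay above the median long telomere cell, but short telomere cells 1, 2 and 3 (234, 401 and 272 TPM) lay below it. All lay within the long range except for short telomere cell 15, which held the highest value of all. The mean log2(TPM + 1) of the sum was 9.18 ± 1.29 (SD, n = 81), 9.64 ± 1.15 (n = 25) and 10.68 ± 1.80 (n = 15), a difference long minus short of -1.50. Pairing each long with each short telomere cell, the long one had the higher sum in 26.0% of pairs. Among gene-poor cells the difference was -1.67, and among gene-rich cells it was 0.02, where the 3 short telomere cells had 234, 272 and 2115 TPM. The variant sum, which leaves out H3F3AP4, had medians of 5380, 5586 and 4443 TPM in these groups. Its long minus short difference was 0.25 in mean log2(TPM + 1). That difference was 0.07 among gene-rich and 0.56 among gene-poor cells. The variant share of histone TPM averaged 88.9% ± 8.46 (SD) in the long group, 84.4% ± 15.3 in the medium and 68.9% ± 24.6 in the short. In the same order it averaged 87.6%, 78.3% and 64.6% among gene-poor cells. Among gene-rich cells, with 3 short telomere cells, it averaged 89.7%, 89.3% and 86.1%. While the replicative sum was higher in short telomere cells, fewer of its genes were seen: 12.8 ± 7.42 per long and 7.13 ± 3.83 per short telomere cell. These numbers were 6.73 ± 4.02 and 5.75 ± 2.53 among gene-poor cells, and 16.4 ± 6.58 and 12.7 ± 3.21 among gene-rich cells. Detected genes of all kinds were fewer too, at a mean of 8296 per long and 5784 per short telomere cell, as were variant genes, at 9.14 and 6.80.

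**Figure D3:**
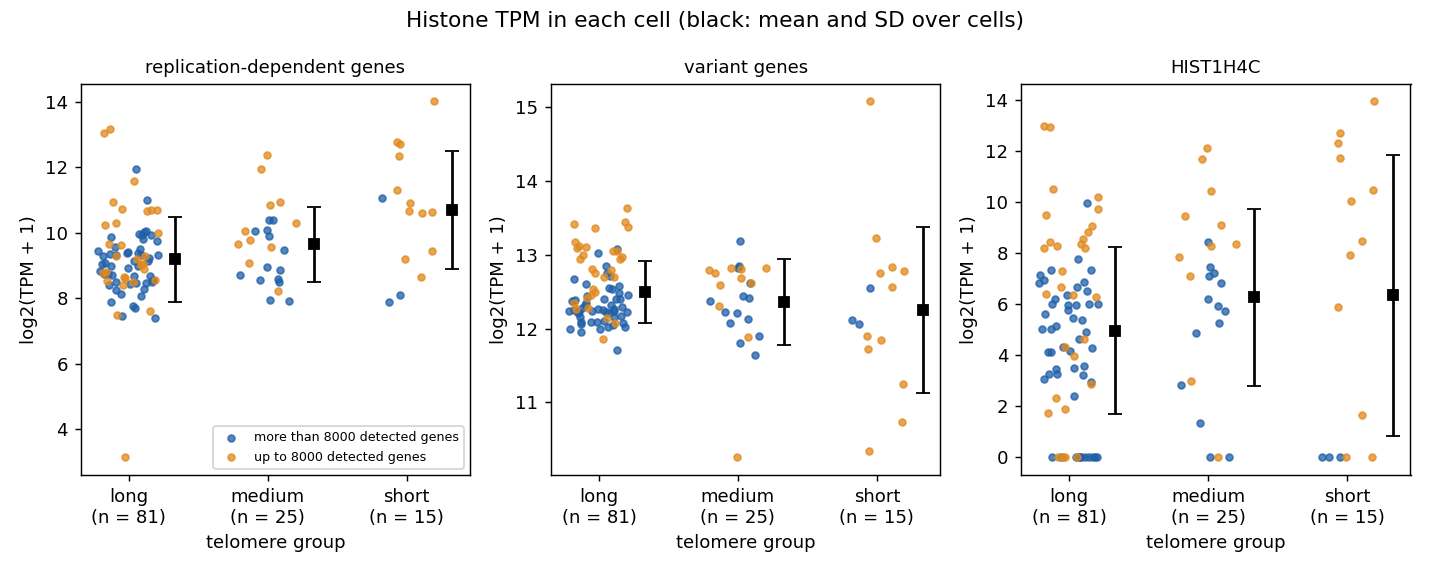
log2(TPM + 1) of summed replicative genes, summed variant genes and HIST1H4C in each cell by telomere group, blue for more than 8000 detected genes and orange for up to 8000, with mean and SD over cells in black. The replicative means are 9.18, 9.64 and 10.68 from left to right, and the highest short telomere cells are orange.

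In mean log2(TPM + 1), though not in every cell, this difference rested largely on HIST1H4C. Its TPM was 0, 34.6 and 8160 in the lowest, median and highest long telomere cell, 0, 135 and 4440 in medium and 0, 241 and 15757 in short telomere cells. It was detected in 66 of 81 long, 22 of 25 medium and 10 of 15 short telomere cells, and groups overlapped over their whole lower range. Mean log2(TPM + 1) was 4.95 ± 3.27, 6.27 ± 3.46 and 6.35 ± 5.50 (SD), long minus short -1.39, with the long one higher in 41.8% of pairs. In 6 of 15 short telomere cells it exceeded 1000 TPM, and in 5 it was 0, among them the 3 gene-rich ones, so the gene-rich difference was 4.17 and the gene-poor difference -1.65. The highest short telomere cell had 2030 detected genes, the fewest of all cells, and HIST1H4C gave 95.7% of its replicative TPM. In the next, with 6046 detected genes and 6686 TPM of HIST1H4C, the share was 99.7%. Without HIST1H4C, the long minus short difference of the replicative sum was -0.29. Other replicative genes were also high in some short telomere cells. Cells 5, 7, 9, 10 and 14, with HIST1H4C between 0 and 58.1 TPM, had replicative sums of 583 to 2548 TPM, above the long median of 537. Cells 1 and 3, with HIST1H4C at 0, had 234 and 272 TPM. HIST1H4J was 46.5 TPM in the median long and 79.1 TPM in the median short telomere cell, a difference of -0.28, and HIST1H4J and HIST1H4K summed gave 0.22.

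Counts of members are read against all genes, since most genes were lower in short telomere cells. Among the 8434 genes with a mean of at least 5 TPM, 58.5% were higher in long than in short telomere cells by more than 1 in mean log2(TPM + 1), 2.72% were lower by more than 1, and the median difference was 1.19. Of 25 replicative genes with that mean, 7 (median difference 0.39) were higher by more than 1 and 2 lower, and of 10 variant genes 6 (median 1.36) and 0. The 25 count both members of the pairs HIST2H2AA3 with HIST2H2AA4 and HIST2H4A with HIST2H4B, which had the same TPM in every cell. Among gene-poor cells, 41.3% of all genes were higher and 5.49% lower, with a median of 0.78, against 3 and 2 of the 25 replicative genes (median 0.01) and 6 and 0 of the variant genes (median 1.28). Among gene-rich cells, where 3 short telomere cells set the difference, 13.6% of all genes were higher and 8.62% lower, with a median of 0.04. There 9 replicative genes were higher and 8 lower (median 0.44), and 5 variant genes were higher and 0 lower (median 0.99). Both members of each of these same-valued pairs (-1.51 and -2.32) are among the 8 lower. Between long and medium telomere cells, 1.42% of all genes were higher in long and 0.605% lower, against 2 and 3 replicative and 0 and 0 variant genes. Between medium and short telomere cells, 51.4% of all genes were higher in medium and 2.95% lower, against 7 and 1 replicative and 5 and 0 variant genes.

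H3F3A had the highest difference among the members. Its TPM was 0, 399 and 1185 in the lowest, median and highest long telomere cell, 0, 375 and 1841 in medium and 0, 45.6 and 963 in short telomere cells. Mean log2(TPM + 1) was 7.53 ± 2.90, 8.02 ± 2.25 and 4.90 ± 3.55 (SD), long minus short 2.63, with the long one higher in 76.0% of pairs. The difference was 1.37 among gene-poor and 2.39 among gene-rich cells. Counted with H3F3AP4, with which it shares sequence, it was 1.10, and 1.01 among gene-poor and -0.12 among gene-rich cells. H3F3B, the other H3.3 gene, had group medians of 651, 697 and 590 TPM (long, medium, short) and a difference of 0.66.

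HIST3H2A followed, the highest among replicative genes. It was detected in 50 of 81 long, 10 of 25 medium and 2 of 15 short telomere cells, with highest values of 413, 220 and 21.7 TPM. The difference was 2.57, and 1.21 among gene-poor and 2.52 among gene-rich cells. H2AFY2 was detected in 58 of 81 long, 17 of 25 medium and 5 of 15 short telomere cells, and did not exceed 11.1 TPM in any short telomere cell, against 179 TPM in the highest long and 119 TPM in the highest medium telomere cell. Its difference was 2.33, and 2.61 among gene-poor cells and 0.64 among gene-rich cells. H2AFY, the other macroH2A gene, had medians of 33.9, 31.4 and 7.44 TPM and a difference of 1.87. The macroH2A genes had r = 0.33 with each other over the 121 cells (rho 0.30). H1F0 was detected in 56 long, 14 medium and 2 short telomere cells. Its difference was 1.96, and 1.33 among gene-poor and 2.24 among gene-rich cells.

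The remaining variant genes with a mean of at least 5 TPM lay between 0.40 (H2AFZ) and 1.37 (H2AFJ), near or below the median of all genes. H2AFX had medians of 48.7, 40.8 and 21.7 TPM and a difference of 1.34, which was 0.03 among gene-poor and 1.73 among gene-rich cells. H1FX changed side with the cells used, at 0.79 in all, -0.46 in gene-poor and 2.28 in gene-rich cells. Of the replicative genes, HIST1H2BH (1.82), HIST1H1C (1.53) and HIST1H2BK (1.09) were higher in long telomere cells. Their differences were 0.08, -0.26 and 0.23 in gene-poor cells and 1.75, 2.33 and -1.28 in gene-rich cells. There HIST1H2BK was 12.3, 15.05 and 1073 TPM in the 3 short telomere cells. At the low end stood HIST1H4C, HIST1H2AJ (-1.09, detected in 14 long, 3 medium and 4 short telomere cells, with 983 TPM in the highest short telomere cell), the pair HIST2H4A and HIST2H4B (-0.46) and HIST1H4J. The direction of HIST1H2AJ turned with the cells used, at 0.71 in gene-rich cells, 0.070 without the 11 cells with the fewest detected genes and -1.58 in gene-poor cells, and its group medians were both 0. HIST1H2AJ shares 66.3% of its windows with HIST1H2AI.

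**Figure D4:**
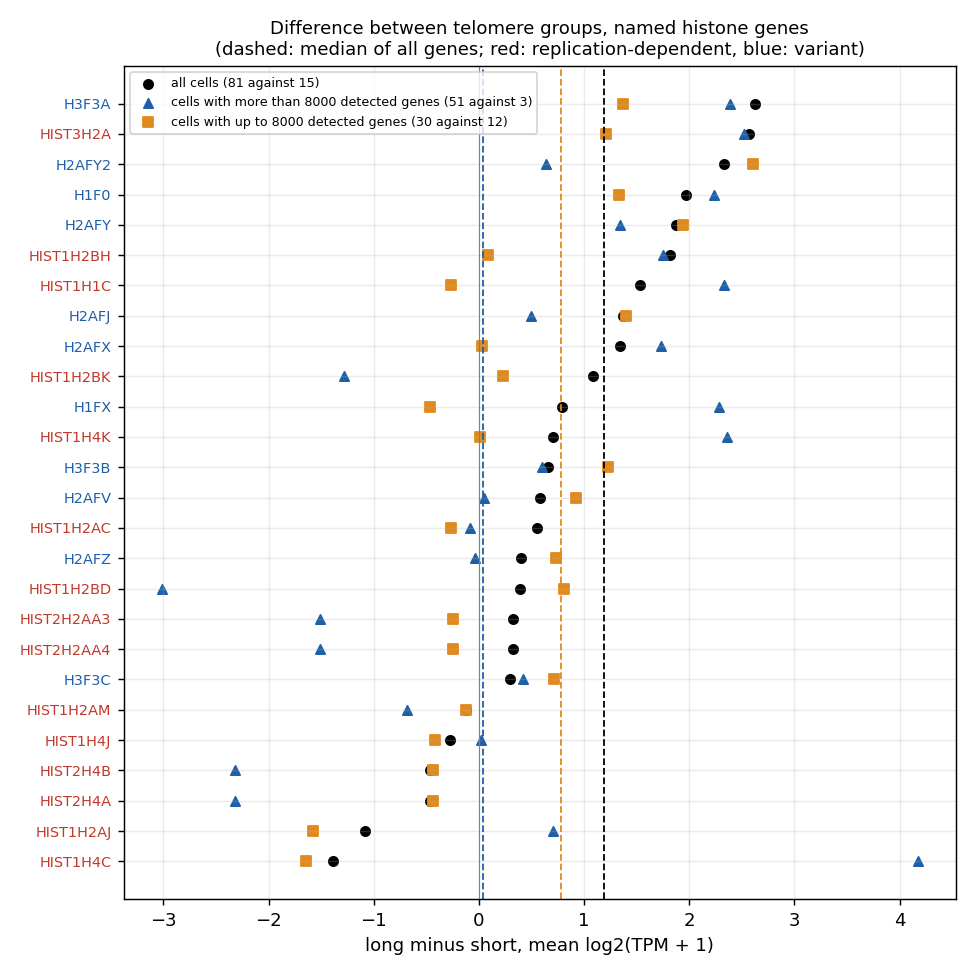
Long minus short difference of mean log2(TPM + 1) for the 26 named histone genes in all cells (black), gene-rich cells (blue triangles, 51 against 3) and gene-poor cells (orange squares, 30 against 12), with the median of all genes dashed. H3F3A (2.63) and HIST3H2A (2.57) are highest and HIST1H4C (-1.39) lowest, and several replicative genes move across 0 between the cell sets.

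Histone levels were only loosely related to the T/R ratio itself. The groups were cut on this ratio, so these coefficients describe the same cells again. Over the 121 cells, which share one line and differ in number of detected genes, the replicative sum had r = -0.19 and rho = -0.18 with the T/R ratio, and r = -0.13 among gene-rich and -0.22 among gene-poor cells. Within long telomere cells it was 0.12, within medium -0.32 and within short -0.41. The variant sum had r = 0.04 on TPM without the log2 transform, and rho = 0.15. Its coefficient on log2(TPM + 1) was higher and is given in the closing section. Among the 25 replicative genes with a mean of at least 5 TPM, r ran from -0.21 (HIST1H2AJ) to 0.18 (HIST1H2BD) with a median of -0.08, and among the 10 variant genes from -0.08 (H2AFV) to 0.26 (H1F0) with a median of 0.05, against -0.33 to 0.61 with a median of 0.03 over all 8434 genes. For H1F0, r was 0.14 when the 2 cells with the most extreme T/R ratio were left out, 0.04 in gene-rich and 0.32 in gene-poor cells. H2AFY2 had r = 0.24 and H3F3B r = 0.22.

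Replicative genes did not move as a block with S phase genes. A score, the mean log2(TPM + 1) of 20 S phase genes (PCNA, GINS2, RRM1, FEN1 and others), had r = -0.38 with the log2 replicative sum (rho -0.18), which was 0.23 among gene-rich and -0.35 among gene-poor cells. With the number of detected genes the sum had r = -0.43, and given that number the partial correlation with the score was -0.16. The number of replicative genes detected went the other way, at r = 0.53 with the score (rho 0.61), 0.36 among gene-rich and 0.33 among gene-poor cells, but had r = 0.69 with the number of detected genes and a partial correlation of 0.17. HIST1H2BH had the highest coefficient of the replicative genes with the score (0.43, and 0.32 in gene-rich cells) and HIST1H4C the lowest (-0.30, but 0.36 in gene-rich cells). Among all 8434 genes the median was 0.33, and 0.16 among the 25 replicative and 0.30 among the 10 variant genes. With a score of 16 G2 and mitosis genes, the replicative sum had r = -0.52 (rho -0.47) and -0.10 among gene-rich cells, and HIST1H1C had r = 0.46 and 0.36. Between the 15 replicative genes detected in at least 25% of cells, the median of 105 pairwise coefficients was 0.11, and 0.06 within either cell set. The coefficients include that of HIST2H2AA3 with HIST2H2AA4 (r = 1), which had the same TPM in every cell.

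**Figure D5:**
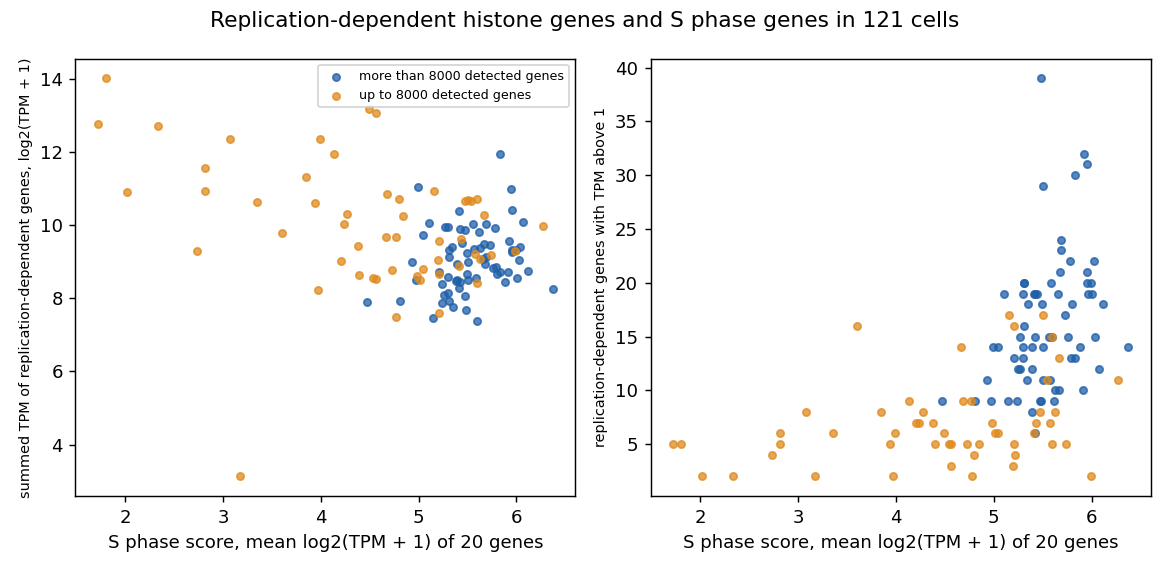
Log2 summed TPM (left) and number detected (right) of replicative histone genes against the S phase score, each point 1 of 121 cells, blue for more than 8000 detected genes and orange for up to 8000. The sum falls with the score (r = -0.38) through orange points at low scores, and the number detected rises (r = 0.53).

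Genes that make and handle histone mRNA and protein were mostly higher in long telomere cells, as were most genes. Of 11 genes for transcription, 3′ processing and decay of replicative histone mRNA, 10 had a mean of at least 5 TPM, and 9 of these were higher by more than 1 in long telomere cells and 0 lower, with a median of 1.50 against 1.19 over all genes. Among gene-poor cells 4 of 10 were higher (median 0.89 against 0.78), and among gene-rich cells 2 (median -0.15 against 0.04). SLBP, the stem-loop binding protein, had a mean log2(TPM + 1) of 5.22 ± 1.90 (SD) with long, 4.54 with medium and 2.71 ± 3.39 with short telomeres, a difference of 2.50, and 2.56 among gene-poor and -0.70 among gene-rich cells. LSM10, a subunit of the U7 particle that guides cleavage behind the stem-loop, had the highest difference of the list (3.82), followed by SLBP and CPSF3 (2.43), the cleaving enzyme. The lowest were LSM11 (-0.87), the partner of LSM10, at a mean of 1.66 TPM, CASP8AP2 (0.68) and SYMPK (1.03).

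Of 25 histone chaperones and exchange factors, 21 had that mean, of which 12 were higher and 0 lower (median 1.39), 10 among gene-poor cells (median 0.98) and 0 among gene-rich cells (median 0.01). The highest were VPS72 (3.68), which handles H2A.Z, HAT1 (2.93), which acetylates new H4, and RBBP7 (2.33). The lowest were CHAF1A (-0.30), a subunit of the chaperone that loads H3 and H4 behind the replication fork, SUPT16H (0.09) and HJURP (0.20), the chaperone of the centromeric H3. Of 20 S phase genes, 14 of 19 were higher and 0 lower (median 1.50), with 12 higher and 1 lower among gene-poor (median 1.38) and 2 and 0 among gene-rich cells (median 0.35). The differences in all cells were highest for RRM1 (2.47), PCNA (2.15) and FEN1 (2.03) and lowest for CDT1 (-0.24), GINS2 (0.47) and GINS1 (0.62). Of 16 G2 and mitosis genes, 13 were higher and 0 lower (median 1.74), with 11 and 0 among gene-poor (median 1.73) and 0 and 0 among gene-rich cells (median -0.47). In all cells CCNB2 (3.41), CDK1 (3.26) and HMMR (2.28) were highest and CDC20 (0.67), TOP2A (0.75) and TPX2 (0.80) lowest. These counts stand beside 58.5% of all genes higher in all cells, 41.3% in gene-poor and 13.6% in gene-rich cells.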

How the data were processed

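Single-cell mRNA was captured with a biotinylated oligo-dT primer and read as 50-base single-end reads. Mapping was done by the authors with TopHat (genome hg19), who deposited 1 TPM table with a column per cell. The study's methods name HTSeq counts on RefGene genes, while the submitters' processing notes name TopHat2 and RSEM, and how TPM were derived from either is not given in the sources used here. The table is read to ZFR, without 1 cut-off row, and later symbols were not analysed here. Differences are of mean log2(TPM + 1), with SD over cells, and more than 1 is called. A gene is detected above 1 TPM. T/R ratios, used as an axis for correlations, come from the study's table of cells. Of the replicative genes, HIST2H2BA and HIST2H2BC are pseudogenes in RefSeq. Symbols were matched through RefSeq synonyms, and 88 of 91 members had a GENCODE position. HIST1H2BF, HIST1H2BG and HIST1H4F had none. Named genes are the variant genes detected in at least 10% of cells, the 12 replicative genes with the highest mean TPM, the 5 members highest and the 5 lowest by long minus short difference at a mean of at least 5 TPM, the 3 highest and 3 lowest genes of each list, and members that share sequence. Members and lists were chosen with earlier results of these data known. Formulas were tested on simulated data. Alternatives were other pseudocounts (0.1 and 10), detection limits (0 and 10), medians and rank correlations, partial correlations, rescaling, leaving out cells or genes, and cell sets split at 8000 detected genes. Software was Python 3.11.15 with pandas 2.3.3, scipy 1.17.1, numpy 2.4.6 and matplotlib 3.10.9.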

Additional observations from a re-analysis of the deposited data

How the results depend on the processing

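No paired analysis was possible because the results come from no test and the numbers in the titles only name cells. The replicative sum (long minus short, -1.50) was -2.27 after rescaling by the median ratio, -0.29 without HIST1H4C (chosen after seeing the data) and 0.024 in gene-rich cells. It was -1.27 without short telomere cell 15 and -1.36 without short telomere cell 6, both chosen after seeing the data, and the variant sum (0.25) was then 0.28 and 0.45. Rescaling by the median ratio gave -0.52 for the variant sum, and moved the median of all genes from 1.19 to 0.86.

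The 35 replicative and variant genes with a mean of at least 5 TPM gave 13 higher and 2 lower in long telomere cells, against 58.5% and 2.72% of all genes. The 35 count both members of the pairs HIST2H2AA3 with HIST2H2AA4 and HIST2H4A with HIST2H4B. With a pseudocount of 10, 3 were higher and 1 lower. There the share of all genes that was higher fell from 58.5% to 17.1%, and the share that was lower from 2.72% to 0.866%. With a pseudocount of 0.1, medians, or without the 11 cells with the fewest detected genes, 17, 12 and 13 were higher, and 1 was lower each time. The shares of all genes were 74.6%, 64.4% and 49.6% higher, and 2.95%, 1.73% and 5.21% lower. In gene-rich cells 14 were higher and 8 lower, against 13.6% and 8.62% of all genes. The variant share (85.5%) was 80.4% in gene-poor cells and 38.4% without H2AFZ, H3F3A and H3F3B. The T/R correlation of the variant sum (0.04) was 0.20 on log2(TPM + 1) and 0.15 by rank. With the S phase score, that of the replicative sum (-0.38) was -0.18 by rank, -0.16 given the number of detected genes and 0.23 in gene-rich cells, and that of the variant sum (-0.02) was 0.31 in gene-rich and 0.13 in gene-poor cells and 0.27 given that number.

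Of 234 differences of the 26 named genes over 9 alternatives, 159 moved by less than 0.5 and 75 by more. The sign changed in 23, from 13 genes, 5 of them with a difference past 1 in all cells: HIST1H4C (4.17), HIST1H2BK (-1.28) and HIST1H2AJ (0.71) in gene-rich cells, HIST1H1C (-0.26) in gene-poor cells and HIST1H2AJ (0.070) without the 11 cells. The 23 and the 13 count both HIST2H2AA3 and HIST2H2AA4, which had the same TPM in every cell. Among smaller differences that changed sign, HIST1H2BD (0.39) was -3.01 and the pair HIST2H2AA3 and HIST2H2AA4 (0.33) -1.51 in gene-rich cells, HIST1H4J (-0.28) was 0.49 without the 11 cells, and H2AFZ (0.40) was -0.36 and H3F3B (0.66) -0.11 after rescaling by the median ratio. The cause was not tested.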
